A study of Xenopus tropicalis with 9 samples.

Results

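The genes described here are the chemokines, the interleukins and their receptors of the western clawed frog, Xenopus tropicalis, across adult tissues. They were taken by symbol alone, as every gene whose name begins with cxcl, cxcr, ccl or ccr and a digit, with xcr1, or with il and a number, and no measured value entered this rule. That cxcl14 is high in intestine was known beforehand. The rule gave 67 of 30330 named genes: 5 CXC chemokine ligands, 4 CC chemokine ligands, 4 CXC chemokine receptors, 6 CC and XC chemokine receptors, 19 interleukin ligands and others, and 29 interleukin receptors. Some share only the name, such as il4i1, which codes for an amino acid oxidase. The interleukin receptors counted here include il1rapl1 and il1rapl2, which are known from mammalian neurons. The rule sees only genes that carry such a symbol in the tables.

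Chemokines are small secreted proteins that steer migrating cells through G protein-coupled receptors, and the CXC, CC and XC classes are named for the spacing of their cysteines. Interleukins act through single-pass receptors, most of which pair a ligand-binding chain with a shared signalling chain and start JAK and STAT signalling, while the IL-1 and IL-17 families signal through other adaptors to NF-kB. Some chemokines are made without any stimulus by epithelia and stroma, and others are made mainly during inflammation. Most roles given for single genes are those known in mammals.

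Transcripts were measured by mRNA sequencing in 9 libraries, all from adult animals with no treatment or genotype named. Each sex gave 1 head and 1 heart library, so that these tissues have n = 2. The female tissues lung, ovary, intestine and GI tract and the male testes have 1 library each and so no replicate check. The labels do not say whether libraries came from separate animals or from pools, so p-values measure at most the spread between these samples. Levels are given as TPM, a transcript unit scaled for gene length and depth, with the female library before the male where a pair is not labelled, and the libraries held 27625145 to 34692548 counts assigned to named genes.

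Each tissue was checked against its own markers, and some libraries also carried those of another tissue. Summed cardiac markers reached 59566 and 88686 TPM in the hearts and at most 512 TPM elsewhere, and summed lung epithelium markers reached 22070 TPM in lung and at most 219 TPM elsewhere. The testes library held its own sperm and testis markers at 1609 TPM, but also intestinal epithelium markers at 7405 TPM and stomach and pancreas markers at 40532 TPM. Female head held those 2 gut lists at 583 and 2593 TPM, against 33.3 and 4.90 TPM in male head. Oocyte markers summed to 3749 TPM in ovary, with ccnb1 at 2894 TPM and figla at 623 TPM. They also summed to 5315 TPM in female heart, 3354 TPM in lung, 195 TPM in female head and 113 TPM in GI tract. Male heart, male head and intestine held 5.42 TPM or less. Testes held 977 TPM, of which dazl alone made up 856 TPM. The intestine library held stomach and pancreas markers at 109954 TPM, close to the 105271 TPM of GI tract. How much these other tissues add to a chemokine or interleukin level was not tested, except where values below bear on it.

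Most of the 67 genes were expressed somewhere, but few were abundant. In at least 1 library, 59 reached 1 TPM, 36 reached 5 TPM and 7 reached 50 TPM. The other 8 stayed under 1 TPM throughout, and il9 and il28b.1 had 0 counts in all 9 libraries, where 3 counts would have been 0.0865 to 0.109 CPM. Only cxcl12, il15 and il1r1 were at 1 TPM or more in all 9 libraries.

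The share of the 67 genes at 1 TPM or more differed far more between libraries than the share of all genes. It was 61.2% in female head, 76.1% in male head, 61.2% in intestine, 55.2% in GI tract, 61.2% in testes and 50.7% in lung, but 20.9% and 19.4% in the hearts and 20.9% in ovary. Over all 30330 genes the same libraries gave 58.5%, 58.3%, 45.1%, 46.7%, 58.7%, 50%, 42.7%, 41.2% and 31.7%. At 1 TPM intestine, male head and GI tract thus held a larger share of these genes than of genes in general. Female head and testes held a slightly larger one, lung about the same, and both hearts and ovary a smaller one. At 5 TPM only intestine held a larger share, 32.8% against 28.3% of all genes. Male head held 38.8% against 40.3%, female head 35.8% against 40.4% and GI tract 25.4% against 29.3%. Testes held 25.4% against 40.8% and lung 22.4% against 38.1%, and the hearts and ovary were also lower. In bulk tissue, fewer cells of a type and less RNA per cell cannot be told apart. The pan-leukocyte markers, such as ptprc and lcp1, followed this order only in part. They summed to 406 TPM in male head, 202 TPM in intestine and 188 TPM in female head. Testes (118 TPM), lung (113.5 TPM) and GI tract (102 TPM) were lower and did not follow their shares. The female and the male heart held 35.7 and 58.1 TPM, of which arhgap45 made up 19.4 TPM in female heart, and ovary 0.65 TPM of these markers. Their part in the levels was not tested.

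**Figure D1:**
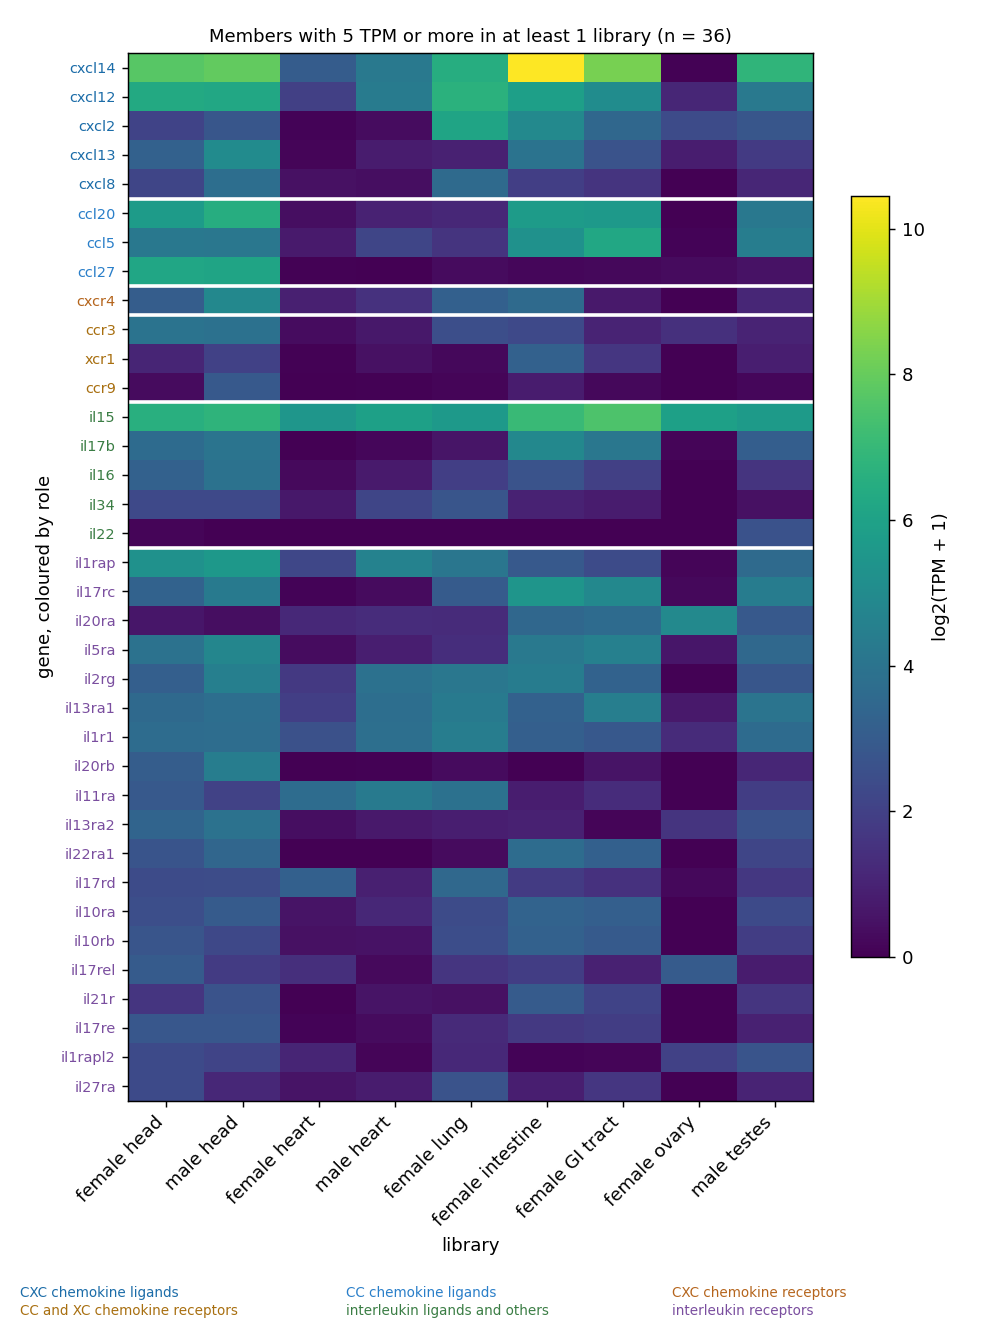
Levels of the 36 genes that reached 5 TPM in at least 1 library, as log2(TPM + 1), with 1 column per library and 1 row per gene. Rows are grouped and coloured by role and ordered by highest level within a role. The cxcl14 row is brightest in intestine (1389 TPM), ccl27 is bright in the 2 heads alone, il15 is bright in every column, and the heart and ovary columns are mostly dark.

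The CXC chemokine ligands were led by cxcl14, which mammalian skin and gut epithelia make without stimulus. The level of cxcl14 was 208 (female) and 240.0 (male) TPM in the heads, 7.33 and 17.6 in the hearts, 90.4 in lung, 1389 in intestine, 312 in GI tract, 0.03 in ovary and 112 in testes. Intestine was 4.44 times GI tract, the next library, and ovary held 2 counts. The 104806 counts in intestine were 0.323% of that library (95% Wilson interval 0.321 to 0.325, counting error only), and cxcl14 ranked 108th there among all genes by TPM. Intestine was also the library with the largest sum over the 67 genes, 1972 TPM. Without cxcl14 that sum was 583 TPM and male head, at 762 TPM, was highest, with GI tract at 542 and female head at 562 TPM close to intestine.

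The ligand of cxcr4, cxcl12, which in mammals is made by stromal and endothelial cells, was the most even of the abundant chemokines outside heart and ovary. Its level was 79.2 (female) and 74.6 (male) TPM in the heads, 2.93 and 19.3 in the hearts, 101 in lung, 59.1 in intestine, 33.2 in GI tract, 1.15 in ovary and 17.8 in testes. The 2 hearts differed 6.59-fold. All 8 endothelium markers were also higher in male than in female heart, with a median ratio of 7.51, and they summed to 787 TPM in lung, the highest of the 9 libraries.

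The neutrophil attractant cxcl2 was highest in lung, and its relative cxcl8 was highest in male head, with lung next. The level of cxcl2 was 3.24 (female) and 5.93 (male) TPM in the heads, 0.08 and 0.26 in the hearts, 67.3 in lung, 29.5 in intestine, 10.3 in GI tract, 4.23 in ovary and 5.84 in testes. For cxcl8, male head held 12.8 TPM and lung 11.3 TPM, and ovary had 0 counts. The counts of cxcl2 were 2358 in lung and 3 in female heart. In the RefSeq gene order, cxcl2 and cxcl8 lie with 1 gene between them, but cxcl2 was above cxcl8 in lung and below it in male head. The remaining CXC ligand, cxcl13, which draws B cells to follicles in mammals, ranged from 0.11 TPM in female heart to 31.6 TPM in male head and was 14.9 TPM in intestine.

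Among the CC chemokine ligands, ccl20 was shared by head and gut, ccl5 was highest in gut and ccl27 was confined to the heads at levels above 1 TPM. In mammals ccl20 draws lymphocytes and dendritic cells to mucosal surfaces. It stood at 52.7 (female) and 90.7 (male) TPM in the heads, 0.32 and 0.98 in the hearts, 1.26 in lung, 52.7 in intestine, 47.5 in GI tract, 0.01 in ovary and 17.1 in testes. Intestine and GI tract differed 1.11-fold in ccl20, against 4.44-fold in cxcl14.

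The T cell and monocyte attractant ccl5 had the opposite order in the gut libraries. It was at 16.95 (female) and 16.7 (male) TPM in the heads, 0.68 and 3.52 in the hearts, 1.97 in lung, 37.5 in intestine, 75.7 in GI tract, 0.08 in ovary and 20.3 in testes. Counts per TPM of ccl5 varied 1.57-fold between libraries, so the size of a difference depends on the unit. By counts the 2 gut libraries were closer, with 874 in intestine and 1203 in GI tract.

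In mammals ccl27 is made by keratinocytes and draws T cells to skin. Its level was 71.5 (female) and 66.9 (male) TPM in the heads, against 0.05 and 0 in the hearts, 0.23 in lung, 0.12 in intestine, 0.16 in GI tract, 0.23 in ovary and 0.41 in testes. The heads were alike (69.2 ± 3.24 TPM, SD, n = 2), and the nearest other tissue was 169 times lower. Epidermis markers summed to 7346 and 7174 TPM in the heads and to at most 202 TPM in the other 7 libraries. The last CC ligand, ccl4, stayed between 0.45 and 2.57 TPM.

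**Figure D2:**
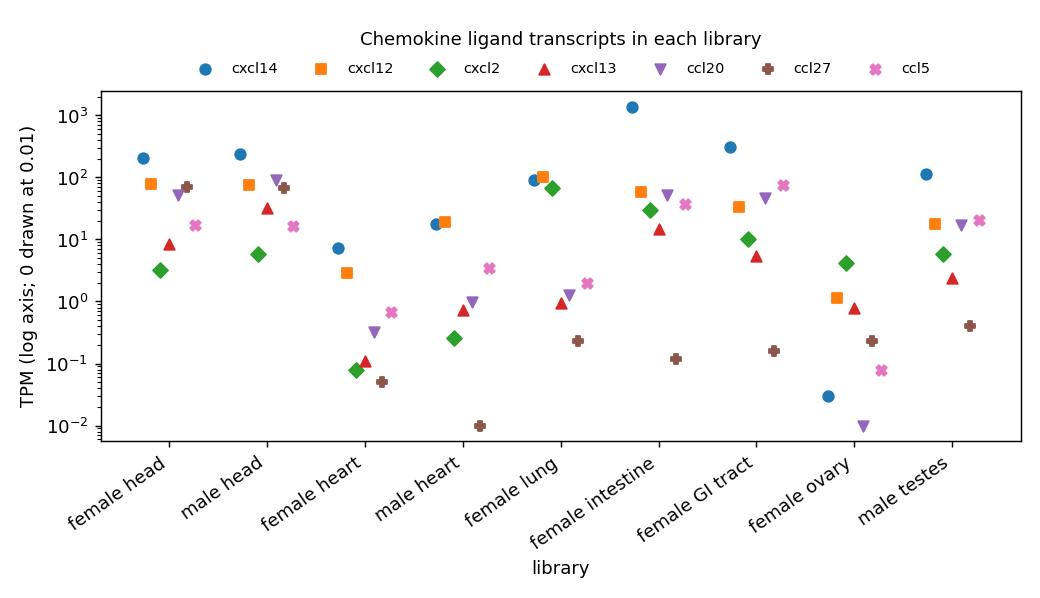
TPM of 7 chemokine ligands in each of the 9 libraries, on a log axis with 0 drawn at 0.01, with 1 marker per gene and library. The cxcl14 marker is the top one in 6 libraries, lung is led by cxcl12 (101 TPM), and ccl27 lies near 70 TPM in the heads and at 0.41 TPM or less elsewhere.

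Of the 10 chemokine receptors only cxcr4 passed 20 TPM. The CXC receptors summed to less than the CXC ligands in each of the 9 libraries, while the CC and XC receptors summed to 6.28 TPM in lung, beside 6.03 TPM of CC ligands. The receptor for cxcl12, cxcr4, was at 7.57 (female) and 28.6 (male) TPM in the heads, 0.88 and 1.83 in the hearts, 8.12 in lung, 11.3 in intestine, 0.66 in GI tract, 0 in ovary and 1.16 in testes. Male head was 3.77 times female head and intestine 17.1 times GI tract, while cxcl12 differed 1.06-fold and 1.78-fold in the same pairs. The T cell receptor cxcr6 was at 2.86 (female) and 2.59 (male) TPM in the heads, 0.06 and 0.27 in the hearts, 1.36 in lung, 2.53 in intestine, 1.52 in GI tract, 0.29 in ovary and 0.68 in testes. Its levels in head and intestine were thus alike. For cxcr3, which in mammals reads interferon-induced chemokines, the 9 levels were 0.63 (female) and 2.56 (male) TPM in the heads, 0.03 and 0.39 in the hearts, 0.83 in lung, 0.88 in intestine, 0.61 in GI tract, 0.30 in ovary and 0.40 in testes. The receptor for cxcl13, cxcr5, stayed at 1.35 TPM or less, with its highest level in testes.

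Of the CC and XC receptors, ccr3 was highest in the heads, xcr1 in intestine and ccr9 in male head. In mammals ccr3 is found on eosinophils. It was at 14.8 (female) and 14.1 (male) TPM in the heads, 0.27 and 0.59 in the hearts, 4.63 in lung, 3.98 in intestine, 1.06 in GI tract, 1.70 in ovary and 1.04 in testes. The eosinophil peroxidase gene epx did not share the evenness of ccr3 in the heads, at 15.8 TPM in female and 69.5 TPM in male head.

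The gut-homing and thymocyte receptor ccr9, the neighbour of ccr3 in the RefSeq order, behaved differently. Its level was 0.22 (female) and 6.55 (male) TPM in the heads, 0 and 0.05 in the hearts, 0.11 in lung, 0.72 in intestine, 0.18 in GI tract, 0.02 in ovary and 0.13 in testes. Male head thus stood alone, at 29.8 times female head. The recombinase gene rag1, active in developing lymphocytes, was at 16.2 TPM in male head and at 0.22 TPM or less in the other 8 libraries, whereas its partner rag2 was at 4.95 TPM in male head and 9.77 TPM in testes.

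The dendritic cell receptor xcr1 stood at 1.09 (female) and 3.08 (male) TPM in the heads, 0.05 and 0.38 in the hearts, 0.17 in lung, 8.58 in intestine, 2.12 in GI tract, 0 in ovary and 0.82 in testes. Intestine was 4.05 times GI tract. The other 3 receptors were low: ccr2, found on monocytes, reached 3.71 TPM, ccr7 reached 1.47 TPM and ccr6, the receptor for ccl20, reached 1.36 TPM. In intestine ccr6 was at 1.26 TPM beside 52.7 TPM of ccl20.

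Interleukin ligands were mostly near 0, and il15 made up most of their sum in every library. In mammals il15 sustains natural killer and memory T cells. Its level was 95.2 (female) and 108 (male) TPM in the heads, 44.2 and 59.9 in the hearts, 47.3 in lung, 133 in intestine, 183 in GI tract, 60.4 in ovary and 50.3 in testes. Ovary and the hearts, which were low in most of these genes, were therefore not low in il15. That order is uncertain, because counts per TPM of il15 varied 4.28-fold, lowest in female heart (130 counts) and highest in ovary (764 counts). Over the 54 members with 20 counts in at least 2 libraries, the median of this variation was 1.08-fold, against 1.19-fold over all genes.

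The gut-rich ligand il17b, of the IL-17 family, was at 11.5 (female) and 15.3 (male) TPM in the heads, 0 and 0.12 in the hearts, 0.50 in lung, 28.0 in intestine, 16.9 in GI tract, 0.09 in ovary and 7.81 in testes. The T cell attractant il16 had another order, with 8.40 (female) and 14.3 (male) TPM in the heads, 0.20 and 0.70 in the hearts, 2.78 in lung, 5.33 in intestine, 2.90 in GI tract, 0 in ovary and 1.94 in testes. The heads were therefore highest in il16 and the gut in il17b. The macrophage ligand il34 was highest in lung at 5.75 TPM and even in the heads at 3.91 and 3.90 TPM.

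The interleukins il1b, il6, il10, il12b and il4 were low or hardly detected. The highest level was 3.83 TPM for il1b (male head), 0.38 TPM for il6, 0.85 TPM for il10 and 1.93 TPM for il12b, and il4 had 2 counts in all, both in male head. Testes held the highest levels of il22 (5.27 TPM, 47 counts), il11 (1.56 TPM, 62 counts), il18 (1.22 TPM, 10 counts), il20 (0.72 TPM, 8 counts) and il21 (0.72 TPM, 4 counts). Outside testes il22 had 1 count in all, il20 and il21 had 0 counts, and il11 had at most 3 counts in any library. None of these 5 exceeded 0.02 TPM in intestine or GI tract, so gut was not where they were high.

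Interleukin receptors were the largest group and included genes for nearly every tissue. The IL-1 co-receptor il1rap was at 37.8 (female) and 46.0 (male) TPM in the heads, 3.66 and 23.7 in the hearts, 16.3 in lung, 6.60 in intestine, 4.28 in GI tract, 0.09 in ovary and 11.4 in testes. Its partner il1r1, which binds IL-1, was more even, from 1.43 TPM in ovary to 20.5 TPM in lung. The decoy receptor il1r2, beside il1r1 in the RefSeq order, was instead highest in ovary, at 2.05 TPM (162 counts), against 0.63 TPM or less elsewhere.

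The IL-17 receptor chain il17rc was highest in the gut libraries. It was at 8.64 (female) and 18.3 (male) TPM in the heads, 0.06 and 0.23 in the hearts, 7.07 in lung, 42.6 in intestine, 28.3 in GI tract, 0.16 in ovary and 19.99 in testes. Its neighbour il17re, whose mammalian product binds IL-17C, was instead highest in the heads at 6.13 and 6.07 TPM, with 2.76 TPM in GI tract. A further family member, il17rd, which in vertebrate embryos restrains FGF signalling, was highest in lung (10.7 TPM) and female heart (8.22 TPM) and was at 0.89 TPM in male heart. Lung and female heart also held oocyte markers, whose part was not tested, and ovary held il17rd at 0.16 TPM. Of the 10 oocyte markers, 7 were also higher in female heart than in ovary, such as wee2 (481 against 0.85 TPM), and 3 were lower.

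The 2 chains of the IL-20 receptor were highest in different tissues. The level of il20ra was 0.55 (female) and 0.30 (male) TPM in the heads, 1.28 and 1.51 in the hearts, 1.41 in lung, 10.1 in intestine, 11.6 in GI tract, 29.0 in ovary and 6.45 in testes. The partner chain il20rb was at 7.45 (female) and 20.5 (male) TPM in the heads, 0.02 and 0.04 in the hearts, 0.25 in lung, 0 in intestine, 0.47 in GI tract, 0 in ovary and 1.17 in testes. Heads were thus lowest in il20ra and highest in il20rb, and intestine and ovary had 0 counts of il20rb. The chain that il20rb also pairs with in mammals, il22ra1, an epithelial receptor for IL-20, IL-22 and IL-24, reached 11.98 TPM in intestine, 8.08 TPM in GI tract and 5.64 and 10 TPM in female and male head, with 0.22 TPM or less in hearts, lung and ovary. The other chain of the IL-22 and IL-10 receptors, il10rb, was at 8.45 TPM in intestine, and il10ra, which binds IL-10, at 8.99 TPM there.

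Receptors of the common gamma chain group were led by il2rg, the shared chain, with 21.9 TPM in male head, 20.1 in intestine, 16.6 in lung and 13.9 in male heart, against 0.04 TPM in ovary. Its partners were lower, with highest levels of 7.04 TPM for il21r (intestine), 4.63 TPM for il2rb (male head), 4.19 TPM for il4r (intestine) and 2.10 TPM for il7r (male head). The IL-5 receptor chain il5ra, which marks eosinophils in mammals, was at 14.5 TPM in female head, 26.8 in male head, 17.7 in intestine and 22.5 in GI tract. The IL-13 chain il13ra1 was highest in GI tract (21.0 TPM), and the decoy il13ra2 in the heads (9.42 and 14.4 TPM).

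Heart had few of these genes at high levels, and il11ra was the clearest. This receptor for IL-11 was at 11.9 TPM in female heart, 18.8 TPM in male heart and 13.8 TPM in lung, against 6.46 and 3.16 TPM in the heads and 2.77 TPM or less elsewhere. Counts per TPM of il11ra varied 2.17-fold, and by counts the order of female heart (96) and female head (85) was nearly level. The neuronal gene il1rapl2 was highest in testes (5.54 TPM), followed by the heads (female 4.05, male 3.41 TPM) and ovary (3.11 TPM, 225 counts). Elsewhere il1rapl2 was at 1.28 TPM or less. By CPM, ovary (8.14) lay above the heads (female 7.33, male 5.99). The highest level of il17rel was 7.06 TPM in ovary and that of il27ra 5.29 TPM in lung. The order of il17rel in the heads turned between units, with 7 TPM but 49 counts in female head and 2.52 TPM but 119 counts in male head.

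Tissue enrichment, which has no test, was taken as a mean of 10 TPM or more in 1 tissue and at least 4 times the mean of every other tissue. By this rule ccl27 was head-enriched (169-fold over the next tissue), il20rb head-enriched (11.9-fold) and cxcl14 intestine-enriched (4.44-fold). These are 3 of 67 genes, against 8.94% of all genes, so enrichment was no more frequent here than in the genome. Of the other members at 10 TPM or more, those nearest to 4-fold were ccr3 and il1rap in head and il20ra in ovary. The first was at 14.4 TPM and 3.12 times lung, il1rap at 41.9 TPM and 2.58 times lung, and il20ra at 29.0 TPM and 2.50 times GI tract. Past 4-fold but under 10 TPM were, among others, xcr1 in intestine, at 8.58 TPM, and il22 in testes, at 5.27 TPM.

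The comparison of head with heart, the tissues with 2 libraries each, asks which of these genes differ beyond the spread between libraries. With tissue as the only term, edgeR's quasi-likelihood test called 0 of 51 members tested and 0% of all 19276 genes, and 22 members and 4670 genes had an unadjusted p under 0.05. The lowest adjusted p among members was 0.0664, for ccl27. With sex as a further term the same test called 14 of 51 members, against 14.4% of all genes, and all 14 were higher in head. They were the ligands ccl20, ccl27, cxcl2, cxcl13, cxcl14, il16 and il17b and the receptors ccr3, il5ra, il13ra2, il17rc, il17re, il20rb and il22ra1.

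Of these, cxcl14 was at 224 ± 22.5 TPM in head and 12.5 ± 7.23 TPM in heart (SD, n = 2 each), a log2 difference of 3.50 ± 1.1 (SE) with an adjusted p of 0.0142 in edgeR's test with the sex term. For il5ra the values were 20.7 ± 8.70 and 0.565 ± 0.417 TPM, a log2 difference of 4.64 ± 1.38 and an adjusted p of 0.00885 in the same test. For ccl27 the adjusted p there was 5.32e-08. Unadjusted p-values of the fits with the sex term were those of a normal distribution for the difference over its SE. A gene's own spread between libraries thus had little weight in them. The number of calls depended on the libraries used: without male heart the model with tissue alone called 29 of 54 members and 10396 of 20784 genes, and without female heart 20 members and 6091 of 20526 genes. Without female head it called 1 member and 559 of 20013 genes, and without male head 1 member and 458 of 20080 genes. DESeq2 called 17 of 63 members and 3786 of 26503 genes, and limma 17 of 50 members and 3022 of 19229 genes. Before any test, 51 of the 55 members with 10 counts in at least 1 of these 4 libraries were higher in head, and their median log2 difference in CPM was 3.25, against 0.89 and 70.0% of genes higher over all 21148 genes, with each level raised to at least 3 counts.

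Head was also set against the mean of the other 6 tissues, in a fit of all 9 libraries. In it, 9.96% of all 23090 genes were called, 2295 of the 2300 higher in head. Of 59 members tested, 7 were called. Higher in head were ccl27 (log2 difference 8.08 ± 0.69 SE, adjusted p 0.0156 in edgeR's test), il22ra1 (3.29 ± 0.64, 0.0489), ccl20 (adjusted p 0.0306), il20rb (0.0210), il16 (0.0482) and cxcr4 (0.0499), and il20ra was lower (-4.48 ± 0.84, 0.0443). For the 4 without a printed difference at least 1 other tissue had 0 counts, so that the fitted size depends on edgeR's prior count.

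The call of ccl27 held in every alternative run, and those of ccl20 and il20rb were lost only without male head. Those of cxcr4, il16, il20ra and il22ra1 were lost in 4 or more alternatives each, and cxcr4 without any of 4 libraries: testes, lung, female head or male head. Without female head 3 members were called, beside 1391 of 22728 genes, and without male head 1, beside 1315 of 22729 genes. Without male heart 26 of 58 members were called, beside 9989 of 22975 genes, and without female heart 23 of 59, beside 8508 of 23003 genes, so the counts of members and of all genes moved together. Without lung 4 were called, beside 1774 of 23043 genes. With the sex term 15.6% of genes were called, 3560 of the 3610 higher in head. The 12 members then called added il13ra2, il17b, il17re, il1rap and il1rapl1 as higher in head.

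Intestine, set against the mean of the other 6 tissues, was the tissue in which the median of these genes lay farthest above that of all genes. Of 59 members with 10 counts in at least 1 library, 46 were higher in intestine, with a median log2 difference of 1.68, while 35.1% of 23297 genes were higher, with a median of -0.49. With tissue alone, edgeR's test called 0 of 59 members and 0% of genes (27 members and 3293 genes with an unadjusted p under 0.05). For cxcl14 the log2 difference was 6.34 ± 0.63 (SE) with an adjusted p of 0.140. With the sex term the test called 20 of 59 members, all higher in intestine, against 8.36% of genes (1405 higher, 525 lower). That term was estimated from head and heart alone and then applied to the tissues with 1 sex. A call therefore does not mean the highest measured level: ccr9, called higher, was at 0.72 TPM in intestine and 6.55 TPM in male head.

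The 20 came from every role group. They were the ligands cxcl2, cxcl13, cxcl14, ccl5, ccl20, il16 and il17b, the chemokine receptors cxcr4, ccr7, ccr9 and xcr1, the receptor chains il2rg, il4r, il5ra, il7r, il10ra, il17rc, il21r and il22ra1, and the enzyme gene il4i1. In that model cxcl14 had a log2 difference of 6.62 ± 1.13 (SE) and an adjusted p of 7.46e-07. Its SE was larger and its adjusted p lower than with tissue alone. The high level of cxcl14 in intestine was known before this contrast was tested, so the p-value is not independent evidence for it. With tissue alone, 25 members and 3984 of 22975 genes were called without male heart, and 17 members and 3105 of 23003 genes without female heart. Without female head the counts were 4 members and 629 of 22728 genes, and without male head 5 members and 676 of 22729 genes. In each of these 4 runs cxcl14 was called. DESeq2 called 11 members, cxcl14 among them, and 1437 of 28091 genes.

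GI tract gave fewer calls than intestine. With tissue alone 0 of 59 members and 0% of genes were called in edgeR's test (19 members and 3162 genes with an unadjusted p under 0.05). With the sex term 5.72% of genes were called, 1314 of the 1320 higher in GI tract. The 9 members called were all higher too: ccl5, ccl20, cxcl14, il5ra, il10ra, il17b, il17rc, il21r and il22ra1. Without male heart, female heart, female head or male head the model with tissue alone called 17, 12, 1 and 2 members, beside 3007, 2362, 740 and 711 of all genes. DESeq2 called 5 members and 1008 of 28091 genes.

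The direct comparison of intestine with GI tract rests on 1 library each and takes its spread from head and heart. It called 0 of 59 members and 0% of genes in edgeR's test (2 members and 231 genes with an unadjusted p under 0.05). DESeq2 called 0 of 65 members but 35 of 28091 genes, 3 higher and 32 lower in intestine. With the sex term edgeR's test called 0 of 59 members and 64 of 23090 genes, all 64 lower in intestine. As levels, 33 of 44 members with 1 TPM in either were higher in intestine and 10 lower, with a median ratio of 1.49, against a median of 0.952 over all genes. The ratio was 17.1 for cxcr4, 4.44 for cxcl14, 4.05 for xcr1 and 2.85 for cxcl2, but 0.496 for ccl5, 0.404 for il13ra1 and 0.392 for il27ra. All 8 pan-leukocyte markers at 1 TPM were also higher in intestine, with a median ratio of 1.85. The 10 stomach and pancreas markers were split, with a median of 0.948 and ratios from 0.391 to 5.74. Of these, cela1, amy2a, cpa1, cpb1 and prss1 were higher in intestine, and chia, gkn1, tff1, atp4a and pnlip were lower.

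Ovary had low levels of most of these genes and high levels of a few. Of 59 members, 11 were higher and 48 lower than the mean of the other 6 tissues, with a median log2 difference of -2.64, against -1.22 over all genes. edgeR's test called 6 of 59 members, against 12.6% of genes. Over all genes 1885 were called higher in ovary and 1018 lower, or 2333 and 748 with DESeq2 size factors. Higher in ovary were il20ra (log2 difference 4.69 ± 0.61 SE, adjusted p 0.0278) and il1r2 (4.02 ± 0.81, 0.0471). Lower were cxcl14 (2 counts in ovary, adjusted p 0.0321), ccl20 (0 counts, 0.0445), il10ra (0 counts, 0.0479) and il16 (0 counts, 0.0478).

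The calls of il20ra and cxcl14 held in every alternative run, and those of ccl20, il10ra, il16 and il1r2 did not. Without male heart 28 members and 11969 of 22975 genes were called, and without female heart 30 members and 12680 of 23003 genes, so members and all genes moved together. Without female head the counts were 3 members and 2301 of 22728 genes, and without male head 2 members and 2259 of 22729 genes. DESeq2 called 28 members and 8686 of 28091 genes. With the sex term 12 members were called, against 22.9% of genes. The pan-leukocyte markers, at 0.65 TPM summed, were also nearly absent from ovary.

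Heart, lung and testes gave few calls. With tissue alone, edgeR's test called 0 of 59 members and 0% of genes in each, with 11, 5 and 4 members and 3267, 1513 and 4160 genes at an unadjusted p under 0.05. With the sex term heart had 5 lower members, against 4.41% of genes (668 higher, 350 lower): cxcl2, il5ra, il17b, il17rc and il22ra1. Lung had 1 higher member, cxcl2 (log2 difference 3.62 ± 1.01 SE, adjusted p 0.0284), against 1.35% of genes, and testes had 0 (2 at an unadjusted p under 0.05), against 4.21%.

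Leaving out a library moved these counts too. For heart, 12 members were called without male heart (11 lower, 1 higher), beside 2921 of 22975 genes. Without female heart there were 10 (6 lower, 4 higher), beside 4438 of 23003 genes, and without female head 1, beside 653 of 22728 genes. For lung, 5 were called without female heart, beside 1724 of 23003 genes. For testes, 4 were called without male heart, 5 without female heart and 1 without female head, beside 3412, 4374 and 1024 of all genes. DESeq2 called 9 members in heart (8 lower, 1 higher) and 0 in lung and in testes, beside 2475, 487 and 1053 of 28091 genes.

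The testes levels stand beside the gut transcripts of that library. All 18 intestine, stomach and pancreas markers were lower in testes than in GI tract, with ratios from 0.193 to 0.444 and a median of 0.316. The ratio of cxcl14 was 0.358, that of ccl20 0.360 and that of ccl5 0.269, all within this range. The ratio of il22ra1 (0.437) also lay within it, while il17b (0.463), il5ra (0.465), cxcl12 (0.536) and il17rc (0.706) lay above it. Of 48 members with 1 TPM in either library 16 were higher in testes and 32 lower, with a median of 0.646, against 2.44 over all genes. The part of gut RNA in the testes levels was not tested.

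**Figure D3:**
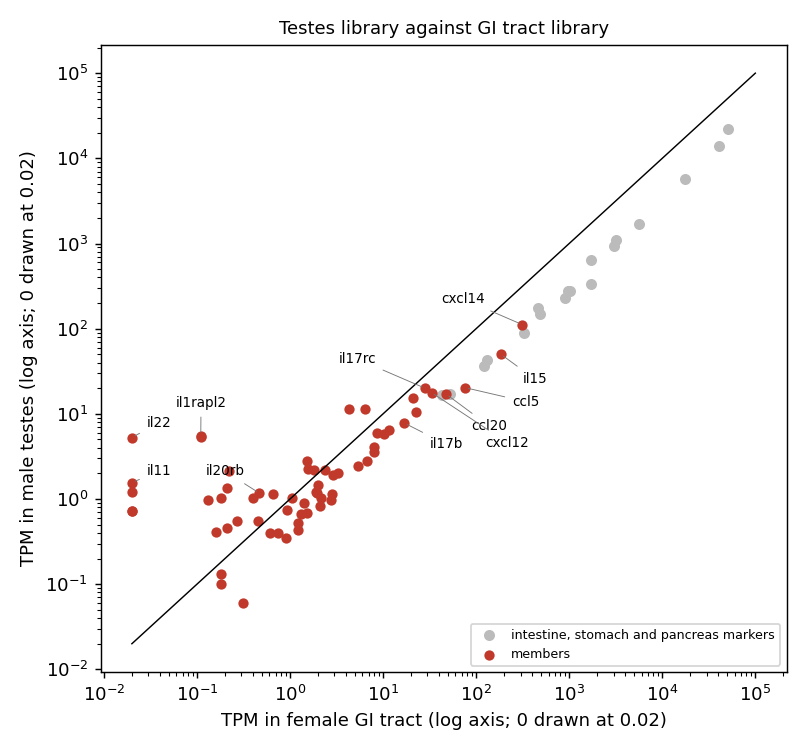
TPM in the testes library against TPM in the GI tract library for the chemokine, interleukin and receptor genes with 0.1 TPM in either (red) and for gut markers (grey), on log axes with 0 drawn at 0.02 and a line of equal levels. The grey points lie below the line at ratios of 0.193 to 0.444. The red points of cxcl14, ccl20 and ccl5 lie among them, and il22, il11 and il1rapl2 lie far above the line.

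The sexes were compared in head and heart, each with 1 library per sex. With terms for tissue and sex, which leave 1 residual degree of freedom, edgeR's test called 0 of 51 members, against 1.62% of all genes, and 0 members had an unadjusted p under 0.05. DESeq2 called 0 of 63 members, with 4 at an unadjusted p under 0.05, beside 557 of 26503 genes called. As levels, 44 of 55 members were lower in the female libraries, with a median log2 difference of -1.01, against 0.04 over all genes.

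Most of these genes were also higher in male than in female head. Of 51 members with 1 TPM in either head, 39 were higher in male head, with a median ratio of 1.65, against 1.03 over all genes. The ratio was 29.8 for ccr9, 11.1 for il7r, 8.93 for il4i1, 4.06 for cxcr3, 3.77 for cxcr4, 3.77 for cxcl13 and 3.65 for cxcl8. Lower in male head were il27ra (0.304), il17rel (0.360), il11ra (0.489) and il10rb (0.661). The ratio was near 1 for cxcl14 (1.15), ccl5 (0.983), ccr3 (0.948), cxcl12 (0.942) and ccl27 (0.936). The markers moved the same way: all 8 T cell markers were higher in male head with a median ratio of 4.94, all 8 B cell markers with 3.26, all 9 myeloid markers with 2.27 and all 9 pan-leukocyte markers with 2.27. Of the markers rag1 was lower in females in edgeR's test (adjusted p 0.0422). Their part in the difference was not tested, and with 1 head per sex the sex and the library cannot be told apart.

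**Figure D4:**
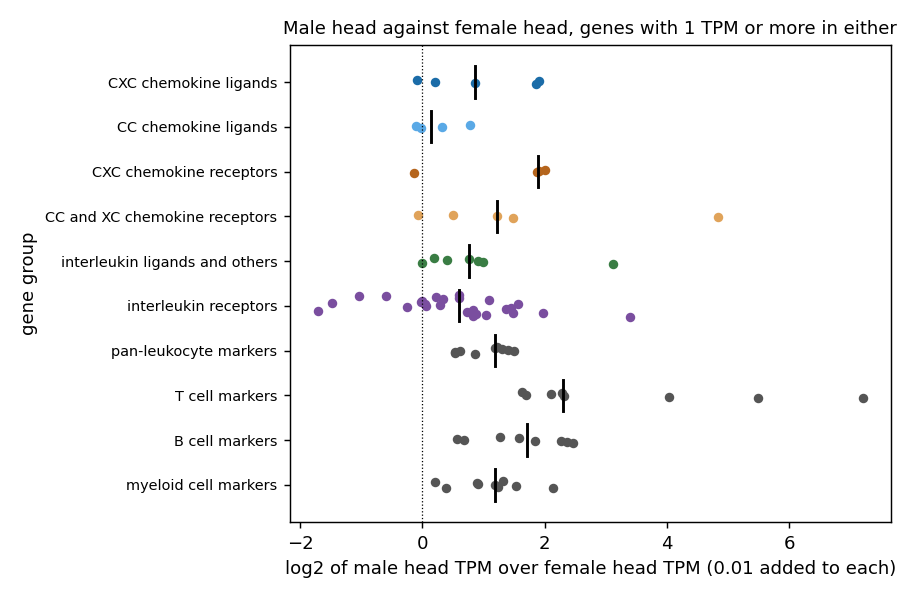
Ratio of male head to female head in TPM on a log2 scale, with 1 point per gene at 1 TPM or more in either head and a bar at the median of each group. The T cell markers lie farthest to the right (median ratio 4.94), CC chemokine ligands lie near 0 (1.11), and the receptor for thymocytes and gut-homing cells, ccr9, is the rightmost chemokine receptor.

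In heart 13 of 18 members at 1 TPM in either library were higher in male heart, with a median ratio of 2.22, against 0.713 over all genes. All 7 myeloid markers at that level were higher in male heart, with a median of 6.17, and 6 of 7 pan-leukocyte markers. All 3 T cell markers were also higher there, while of 2 B cell markers 1 was higher and 1, blnk, lower (41.97 TPM in female and 2.85 TPM in male heart). Against this order ran 5 members. The largest level was that of il17rd, at 8.22 TPM in female and 0.89 TPM in male heart. The others were low, with il6st at 1.83 and 0.31, il17rel at 1.65 and 0.20, ccl4 at 1.53 and 0.70 and il1rapl2 at 1.13 and 0.09 TPM. Female heart is also the library with the most oocyte transcripts, and their part in these ratios was not tested.

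Other genes of these pathways were taken from lists of symbols. Of 11 atypical and other chemokine genes, 4 were found, and 0 were called for any tissue with tissue as the only term. Over all genes that model called 9.96% for head, 12.6% for ovary and 0% for each other tissue, so 0 of 4 says little. The scavenging receptor ackr3, which binds cxcl12, was at 46.2 TPM in lung, 27.4 and 22.9 TPM in male and female head and 0.38 TPM in ovary, so that it was highest in the library highest in cxcl12. Its relative ackr4 was also highest in lung, at 30.2 TPM. The third, gpr35, reached 8 TPM in intestine.

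The JAK and STAT list had 16 of 18 genes. With tissue alone, 2 of 16 were called, both higher in ovary, where 12.6% of all genes were called: the kinase jak2 (70.2 TPM, log2 difference 3.01 ± 0.46 SE, adjusted p 0.0336 in edgeR's test) and the inhibitor socs3 (2.62 ± 0.48, 0.0423). In TPM socs3 was not highest in ovary, with 35.2 TPM there and 49.6 and 68.5 TPM in female and male head. Hearts, gut and testes held 5.59 to 17.1 TPM, and the fitted difference is on edgeR's TMM-scaled counts. Its 3 most abundant genes were the suppressors pias1 and socs1 and the kinase jak3. The first, pias1, was at 253 TPM in female heart and 246 in lung against 2.34 in male heart, and socs1 was at 152, 168 and 7.22 TPM there and 148 TPM in ovary, beside the oocyte markers of these libraries, whose part was not tested. In the comparison of the sexes pias1 was higher in females (log2 difference 4.44 ± 1.23 SE, adjusted p 0.0223 in edgeR's test). The third, jak3, which in mammals serves il2rg, was at 136 TPM in testes and at most 9.62 TPM elsewhere, beside 5.95 TPM of il2rg in testes.

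For the IL-1 and IL-17 signalling list, 18 of 20 genes were found. In ovary tollip, an inhibitor of IL-1 signalling, was higher (log2 difference 3.28 ± 0.61 SE, adjusted p 0.0423 in edgeR's test) and nfkbiz, which IL-17 induces in mammals, was lower (-4.35 ± 0.84, 0.0450). With the sex term nfkbiz was higher in head than in heart and higher in intestine and in GI tract than in the mean of the other tissues. Its level was 26.9 and 37.2 TPM in female and male head, 32.4 TPM in intestine and 34.9 TPM in GI tract, against 6.51 TPM in lung and about 2 TPM in the hearts (2.05 and 2.06). The 3 most abundant genes of the list were rela (up to 134 TPM), tollip (87.4 TPM in ovary) and nfkbia (up to 87.3 TPM). Of the adaptors, myd88 ranged from 5.61 TPM in ovary to 54.7 TPM in lung.

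Of the list of other cytokines and their receptors, 20 of 23 genes were found. The most abundant were ifngr1, tnfrsf1a and mif. The highest level of tnf was 4.99 TPM (male head) and of ifng 0.47 TPM (ovary), while tnfrsf1a reached 103 TPM in lung, ifngr1 192 TPM in ovary and the ligand mif 92.0 TPM in ovary. With tissue alone, in ovary ifngr1 (3.22 ± 0.49, 0.0330) and mif (2.91 ± 0.58, 0.0466) were higher and crlf3 was lower (-6.03 ± 1.1, 0.0416), each as log2 difference ± SE and adjusted p in edgeR's test.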

How the data were processed

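Libraries were made from total RNA of adult tissues with an mRNA kit and sequenced on an Illumina instrument, per the labels' protocols. The authors deposited 2 tables of 30331 rows, of estimated counts rounded to whole numbers and of TPM. The submitters' processing notes name RSEM 1.3 and deepTools, and the aligner, the build and the annotation were not given in the sources used here. That the counts are RSEM estimates was read from these notes and from 1272 values with a count of 0 and a TPM above 0, so reads shared by similar genes may have been divided between them. The row with no gene name, 0.0113 to 1.78% of counts, was left out, which left 30330 genes. Gene order came from RefSeq (UCB_Xtro_10.0), in which all 67 symbols were found, and no coordinates were used.

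Counts were tested over all genes with edgeR 4.0.16 in R 4.3.3 (quasi-likelihood test, TMM scaling, filterByExpr), with Benjamini-Hochberg adjusted p under 0.05. Head and heart were compared in their 4 libraries, with tissue as the term, and the sexes with tissue and sex. The contrasts of 1 tissue with the average of the remaining 6, and of intestine with GI tract, came from a fit of all 9 libraries, in which tissues with 1 library were assumed to vary like head and heart. Alternatives were sex as a further term, DESeq2 size factors, no filter, DESeq2 1.42.0, limma 3.58.1 on log2(TPM + 1) with a mean of at least 0.5 TPM, and each head or heart library left out. Scripts were tested on simulated data. Medians of log2 differences in CPM were taken with each library raised to at least 3 counts, over genes with 10 counts in at least 1 library. Ratios of TPM over gene lists had 0.01 TPM added, and intervals cover counting error only. Each SE beside a result of edgeR's test was derived from that test, as the unsigned log2 difference divided by the square root of its F value.

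Named genes were those with 5 TPM in at least 1 library, those enriched and those called. The 3 most abundant of each role group are given in all 9 libraries. The values of il20rb in all libraries and of the 5 interleukins highest in testes were added after their values were seen. The genes and lists were chosen with earlier results of these data known. A result on 1 gene of the pathway lists is not reported here.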

Additional observations from a re-analysis of the deposited data

Results flagged for a closer look

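In 4 receptor genes that met a minimum of 20 counts the sexes ran in opposite directions in head and heart, by at least 1.5-fold in each tissue. The receptor cxcr5 did so too but was left out, with 4 counts in female and 1 count in male heart. With 1 library per tissue and sex, the difference between the tissues was not tested. The level of il11ra was 6.46 (female) and 3.16 (male) TPM in the heads, but 11.93 and 18.76 in the hearts. For il27ra it was 4.05 (female) and 1.23 (male) TPM in the heads, but 0.47 and 0.74 in the hearts. The decoy receptor il1r2 was at 0.42 (female) and 0.63 (male) TPM in the heads, but 0.31 and 0.11 in the hearts (21 and 5 counts). The shared IL-6 family chain il6st was at 0.63 (female) and 1.13 (male) TPM in the heads, but 1.83 and 0.31 in the hearts.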

How the results depend on the processing

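Counts of called members depended on the model and on the libraries, and the cause was not tested. For head against heart (0 called) they were 14 with the sex term, 17 in DESeq2, 17 in limma and 1 to 29 with a library left out. For head against the other tissues (7) they were 12 with the sex term, 4 with DESeq2 size factors, 3 with no filter, 14 in DESeq2, 11 in limma, 4 without lung and 1 to 26 with a head or heart library left out. For ovary (6) they were 12, 3, 2, 28 and 11 under the first 5 of these and 2 to 30. For intestine (0) they were 20 with the sex term, 11 in DESeq2 and 4 to 25, for GI tract (0) 9, 5 and 1 to 17, and for heart (0) 5, 9 and 0 to 12. For lung (0) they were 1 with the sex term and 0 to 5, and for testes (0) 1 in limma and 0 to 5. The comparisons of the sexes and of intestine with GI tract gave 0 member calls in every alternative run. Leaving out a library was not run for the sexes, since no residual degree of freedom remained. All genes moved too: for head against the other tissues DESeq2 size factors called 2220 of 23090 and no filter 1419 of 28091. DESeq2 called 3273 of 28091 there and limma 3123 of 19934. For ovary the counts were 3081, 1117, 8686 and 4576 in the same order, and limma called 1361 of 19934 for testes.

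Of the alternatives for the 14 results on single genes, 109 kept the call or its absence, 6 gained it, 39 lost it and 0 turned the direction. Runs without testes or lung were chosen after seeing the data. Enriched members numbered 8 at a mean of 1 TPM, 5 at 5 TPM and 11 at 2-fold. The share over all genes was not taken at these settings. At 5 TPM the detected members were 24 and 26 in female and male head, 5 and 8 in female and male heart and 15 in lung. Intestine had 22, GI tract 17, ovary 3 and testes 17. Intestine thus held 32.8% of members against 28.3% of all genes. Shares were lower than over all genes in the heads (35.8% against 40.4% in female, 38.8% against 40.3% in male) and in GI tract (25.4% against 29.3%). They were also lower in testes (25.4% against 40.8%), lung (22.4% against 38.1%), the hearts and ovary. At 0.5 TPM male heart had 26 (38.8%, against 46.7% of all genes). At 10 counts female heart had 25 (37.3% against 50.2%), male heart 37 (55.2% against 50.5%) and ovary 23 (34.3% against 41.2%). By CPM, intestine held 4.61 times the cxcl14 of the next tissue. By replicate number, no paired analysis was possible because the numbers follow listing order and mark no shared animal or batch. The sex term matches head and heart libraries of the same sex, leaves 1 residual degree of freedom, and its counts are those above. In the fit of all 9 libraries it was estimated from head and heart alone and applied to the tissues with 1 sex. Tissues with 1 library have no spread of their own. With DESeq2 size factors the median log2 difference of all genes moved from 0.26 to -0.19 in lung, from -1.87 to -1.70 in ovary and from 0.42 to 0.54 in head.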
